A study of Mus musculus with 12 samples.

Results

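The genes described here are the chemokine Cxcl12 and its 2 receptors, Cxcr4 and Ackr3. They were chosen by name, as 3 of the 35976 gene names in each file, with earlier results of these data known. The cells were mouse A2lox.cre embryonic stem cells carrying a doxycycline-inducible RUNX1-EVI1, a leukaemia-associated fusion of the blood transcription factor RUNX1 with the zinc finger protein EVI1. Embryoid bodies were grown for 3.25 days, FLK1+ cells were purified and cultured for 1 day, and 0.5 µg/ml doxycycline was then given to the PlusDox cells for 18 hours while NoDox cells received none. Each arm was sorted into 3 populations, HE1 and HE2 (hemogenic endothelium 1 and 2 in the labels) and HP (hematopoietic progenitors), so there were 6 groups with 2 biological replicates apiece. These were PlusDox HE1 and NoDox HE1, PlusDox HE2 and NoDox HE2, and PlusDox HP and NoDox HP. All 12 libraries came from cells with the construct, so an effect of doxycycline itself and an effect of the fusion cannot be told apart. Colonies were expanded after selection, and how many of them entered the experiment is not stated in the labels.

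Hemogenic endothelium lines embryonic vessels and gives rise to blood. CXCL12 is a secreted chemokine made mostly by stromal and endothelial cells, and CXCR4 is the G protein-coupled receptor through which it directs the migration and retention of blood progenitors. ACKR3 binds the same ligand, signals mainly through arrestins rather than G proteins, and removes the ligand from the cell surroundings. In mouse embryos both Cxcl12 and Cxcr4 are needed for blood progenitors to settle in the bone marrow and for the growth of some arteries.

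The promoter windows of the 3 genes are shown because the fusion keeps the DNA-binding domain of RUNX1, so its recognition letters near the start sites are of interest. They run 5′ to 3′ on the strand of the gene, from 250 bases before to 50 bases after the start of transcription in RefSeq (GRCm38.p6, the assembly of the mm10 build named for the files). Capitals mark every match, on either strand, to 1 of 5 motifs.
Cxcl12: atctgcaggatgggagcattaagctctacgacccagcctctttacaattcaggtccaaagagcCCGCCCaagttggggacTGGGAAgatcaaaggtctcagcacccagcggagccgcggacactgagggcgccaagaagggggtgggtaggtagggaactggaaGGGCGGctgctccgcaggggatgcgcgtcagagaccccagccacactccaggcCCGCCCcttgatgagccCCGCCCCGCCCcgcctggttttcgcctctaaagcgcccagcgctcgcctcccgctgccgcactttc
Cxcr4: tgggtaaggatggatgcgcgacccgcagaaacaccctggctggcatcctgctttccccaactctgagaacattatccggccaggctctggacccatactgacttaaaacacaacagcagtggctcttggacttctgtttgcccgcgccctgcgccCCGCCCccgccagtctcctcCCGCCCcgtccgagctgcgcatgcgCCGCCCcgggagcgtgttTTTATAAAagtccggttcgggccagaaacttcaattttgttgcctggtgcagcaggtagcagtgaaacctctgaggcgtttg
Ackr3: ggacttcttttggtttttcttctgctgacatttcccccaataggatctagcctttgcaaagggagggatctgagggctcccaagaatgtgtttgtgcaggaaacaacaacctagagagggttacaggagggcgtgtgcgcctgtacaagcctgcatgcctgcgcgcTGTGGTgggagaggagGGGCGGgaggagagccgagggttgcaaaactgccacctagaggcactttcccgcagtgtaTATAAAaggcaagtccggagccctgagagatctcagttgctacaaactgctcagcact
The windows are chr6:117168285-117168584 on the plus strand for Cxcl12, chr1:128592250-128592549 on the minus strand for Cxcr4 and chr1:90203730-90204029 on the plus strand for Ackr3. The genes themselves, all protein coding, span chr6:117168535-117181368, chr1:128588199-128592299 and chr1:90203980-90215724, and no other gene of the RefSeq table overlaps them.

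The RUNX core TGTGGT was found in the Ackr3 window, at positions −84 to −79 from the start site, and 16.8% of 32851 promoter windows of the same length hold it. The Cxcr4 window held the Sp1 letters GGGCGG 3 times (35.7% of windows hold them) and the TATA letters TATAAA on both strands at −32 to −25 in overlapping matches (13.6% of windows). The Cxcl12 window held GGGCGG 5 times, with 1 overlapping pair, and the RBPJ letters TGGGAA at −170 to −165 (25.6% of windows). The hypoxia factor letters ACGTG, present in 19.6% of windows, were in none of the 3. The Ackr3 window also held GGGCGG and TATAAA once each. A match describes letters and is not evidence of binding, and both strands were searched for each motif.

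The libraries each held 11461 to 12174 genes at 1 FPKM or more, where FPKM corrects the fragments of a gene for the length of its transcript and for the mapped total of the library. Read counts were not used here, so the absolute depth is unknown. Steps between low values gave relative depths of 0.58 (PlusDox HE1 replicate 2) to 1.60 (PlusDox HE1 replicate 1). That of PlusDox HP replicate 1 is uncertain, since it came out at 1.22 or 2.44 depending on the range of low values used. Lars2 set 5 libraries apart: replicate 2 of PlusDox HE1, PlusDox HE2, PlusDox HP and NoDox HP, and replicate 1 of NoDox HE1. It had 10223 to 19970 FPKM in these and 24.0 to 224 FPKM in the other 7. Mecom, the mouse gene whose human counterpart gives the EVI1 portion, read 23.0 and 18.1 FPKM in PlusDox HE1, against 16.95 and 28.3 FPKM in NoDox HE1, so the arms overlapped there. It read 18.4 and 20.2 FPKM in PlusDox HE2, against 6.08 and 13.9 FPKM in NoDox HE2, and 5.18 and 5.51 FPKM in PlusDox HP, against 0.194 and 0.205 FPKM in NoDox HP. The 8 endothelial markers summed to 1274 to 1799 FPKM in the 4 HE1 libraries, 700.1 to 1205 FPKM in HE2 and 135 to 304 FPKM in HP. The 8 haematopoietic markers summed to 14.0 to 60.0 FPKM in HE1, 184 to 322 FPKM in HE2 and 456 to 591 FPKM in HP.

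Across the 6 groups the 3 genes followed different patterns. Cxcr4 was low in every NoDox group and rose with doxycycline in both kinds of hemogenic endothelium, by 1.85 ± 0.38 in HE1 and 2.70 ± 0.38 in HE2 (log2 fold change ± SE on FPKM + 1). Cxcl12 was lower in HP than in HE1 in both arms, and its libraries with and without doxycycline overlapped in all 3 populations. Ackr3 stayed under 1 FPKM in all 12 libraries. Cxcr4 and Cxcl12 therefore passed the filter for testing, 1 FPKM in at least 2 libraries, and Ackr3 did not, so that 2 of the 3 members entered the fit of 13316 genes.

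**Figure D1:**
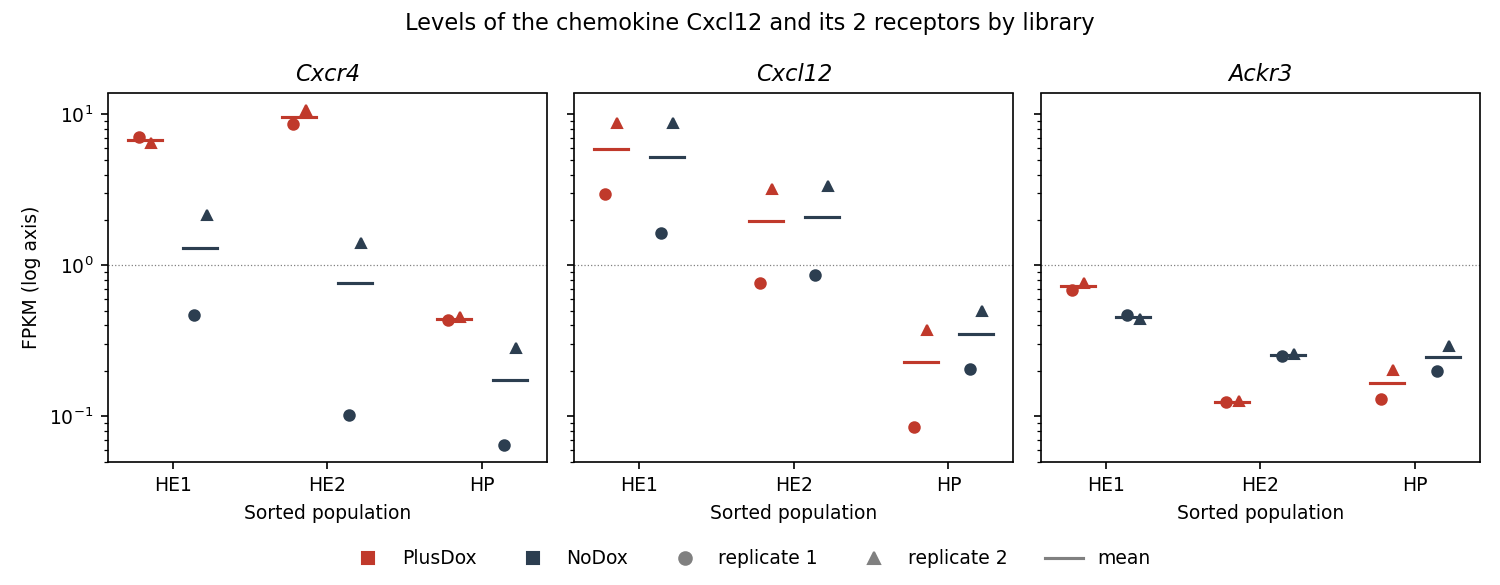
FPKM (log axis) of Cxcr4, Cxcl12 and Ackr3 in each library, by sorted population, with PlusDox left of NoDox. Circles are replicate 1, triangles replicate 2 and bars group means, and the dotted line is 1 FPKM. The PlusDox libraries of Cxcr4 in HE1 and HE2 sit at 6.46 to 10.7 FPKM and the NoDox ones at 0.102 to 2.15 FPKM, while the Cxcl12 arms overlap.

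The ligand Cxcl12 was at its highest in HE1. It read 2.99 and 8.80 FPKM in PlusDox HE1 (replicates 1 and 2), against 1.63 and 8.75 FPKM in NoDox HE1. In HE2 it read 0.763 and 3.19 FPKM with doxycycline, against 0.858 and 3.34 FPKM without. In HP it read 0.0843 and 0.376 FPKM with doxycycline, against 0.205 and 0.498 FPKM without. In each population the ranges of the arms overlapped, and the spread between the replicates of a group, 2.43-fold to 5.36-fold, was wider than the difference of the arms.

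In no population did Cxcl12 pass the test of doxycycline (limma, adjusted over all 13316 genes). The log2 fold change was 0.30 ± 0.62 in HE1 (adjusted p = 0.973, 95% interval −1.06 to 1.66), −0.06 ± 0.62 in HE2 (0.967, −1.42 to 1.3) and −0.14 ± 0.62 in HP (limma adjusted p = 1, −1.5 to 1.22). These intervals reach beyond a doubling in either direction, so a change of that size is not excluded. By replicate number, the PlusDox level of Cxcl12 was 1.83 and 1.01 times the NoDox level in HE1, 0.89 and 0.953 times in HE2 and 0.41 and 0.754 times in HP. The labels do not say that a number marks a shared culture. In HE1 the fold turned negative without NoDox HE1 replicate 1 (−0.64), without PlusDox HE1 replicate 2 (−0.34) and in the 7 libraries low in Lars2 (−1.29). In HE2 it turned positive without NoDox HE2 replicate 2 (0.55) or PlusDox HE2 replicate 1 (0.56), and in HP without NoDox HP replicate 2 (0.02) or PlusDox HP replicate 1 (0.03).

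Between stages, Cxcl12 fell to 0.23 ± 0.206 FPKM in PlusDox HP, against 5.90 ± 4.11 FPKM in PlusDox HE1 (mean ± SD, n = 2 here and below). That is a log2 change of −2.36 ± 0.62 (limma adjusted p = 0.0106), in a comparison in which 38.7% of genes were called and 16.3% were called lower. Without doxycycline it fell to 0.352 ± 0.207 FPKM in HP, against 5.19 ± 5.03 FPKM in HE1 (−1.92 ± 0.62, limma adjusted p = 0.0282), where 40.6% of genes were called and 18.6% called lower. The single steps were negative as well, and none passed in this fit. HP against HE2 with doxycycline passed in a fit to the libraries of these populations alone (limma adjusted p = 0.037). They were −1.20 ± 0.62 for HE2 against HE1 and −1.15 ± 0.62 for HP against HE2 with doxycycline, and −0.84 ± 0.62 and −1.08 ± 0.62 without (limma adjusted p from 0.253 to 0.405; 8.59% and 16.9% of genes were called in these steps with doxycycline, 10.1% and 16% without). The call with doxycycline was lost without PlusDox HE1 replicate 2 (−1.71, limma adjusted p = 0.108) or PlusDox HP replicate 1 (−2.185, 0.0631). The one without doxycycline was lost without NoDox HE1 replicate 2 (−0.97, 0.278), NoDox HP replicate 1 (−1.76, 0.13) or NoDox HP replicate 2 (−2.07, 0.0689). Without the filter on low values neither passed (limma adjusted p = 0.0592 with and 0.109 without doxycycline). The call with doxycycline was also lost in the libraries low in Lars2 (−1.88, 0.107), and the one without doxycycline under quantile normalization (−1.74, 0.0678). These are bulk samples, in which fewer cells that make a transcript and less of it per cell cannot be told apart.

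Cxcl12 also differed by replicate number, which was seen in the values and examined afterwards. In 6 of 6 groups replicate 2 was higher than replicate 1, as was the case for 2.79% of tested genes. In a fit with the replicate number as a term, replicate 2 exceeded replicate 1 by 1.05 ± 0.19 on the log2 scale (limma adjusted p = 0.00665), where 10.6% of all genes were called and 1.93% were called higher. The smooth muscle genes Acta2, an actin, and Tagln, an actin-binding protein, differed the same way, by 0.89 ± 0.12 and 0.81 ± 0.13 (limma adjusted p = 0.00206 and 0.00387), and replicate 2 was higher in 6 of 6 groups for both. Acta2 read 157 FPKM in PlusDox HE1 replicate 2 and 120 FPKM in its replicate 1, and 115 and 67.5 FPKM in the 2 NoDox HE1 libraries. The summed level of all 10 mesenchymal and stromal markers was higher in replicate 2 in 6 of 6 groups, with a range of 40.2 to 318 FPKM in PlusDox libraries and 48.7 to 210 FPKM in NoDox libraries. Acta2 and Tagln make up most of that sum (157 and 147 of 318 FPKM in PlusDox HE1 replicate 2), so it adds little beyond them. The collagen genes Col3a1 and Col1a1 went the same way as Cxcl12, by 0.37 and 0.26 (limma adjusted p = 0.0727 and 0.328), with replicate 2 higher in 5 and 4 of 6 groups. The collagen gene Col1a2 and the pericyte receptor gene Pdgfrb went the other way, by −0.53 and −0.28 (limma adjusted p = 0.0514 and 0.16), with replicate 2 higher in 1 and 2 of 6 groups. For Lepr, also on the list, replicate 2 was higher in 3 of 6 groups. Of the defining members of the list Dcn and Lum, matrix genes of fibroblasts, were listed at 0 in 11 of 12 libraries each. Pdgfra, a growth factor receptor of mesenchyme, was at most 1.21 FPKM, with replicate 2 higher in 2 of 6 groups. What part such cells had in the Cxcl12 values was not tested.

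**Figure D2:**
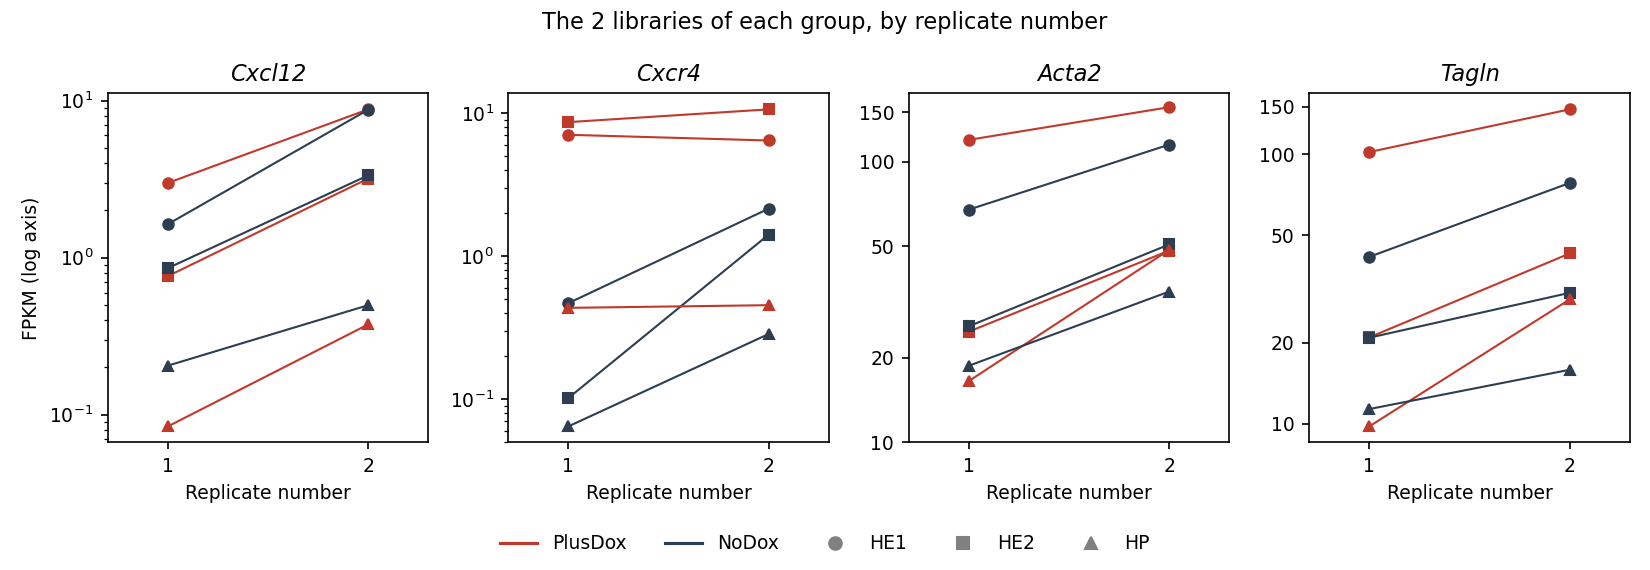
FPKM (log axis) of Cxcl12, Cxcr4, Acta2 and Tagln in the libraries of each group, by replicate number; a line joins the 2 libraries of a group and does not mark an order. For Cxcl12, Acta2 and Tagln replicate 2 lies above replicate 1 in 6 of 6 groups, and for Cxcr4 in 5 of 6.

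The receptor Cxcr4 responded to doxycycline in hemogenic endothelium. In HE2 it read 8.69 and 10.7 FPKM with doxycycline, against 0.102 and 1.42 FPKM without. Both PlusDox libraries lay above both NoDox libraries, as for 22.3% of tested genes in HE2. The fold of the means was 12.7 and the log2 fold change 2.70 ± 0.38 (limma adjusted p = 0.00211), the 23rd highest of 13316, in a comparison in which 6.06% of genes were called and 3.82% were called higher. By mean level Cxcr4 exceeded 49.3% of the tested genes in PlusDox HE2 and 7.28% of them in NoDox HE2. It was called in each of 12 fits that left out 1 library, with log2 fold changes from 2.14 to 3.27. In the 7 libraries low in Lars2, with 1 residual degree of freedom, the fold was 2.57 and the limma adjusted p = 0.18.

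In HE1 Cxcr4 read 7.08 and 6.46 FPKM with doxycycline, against 0.469 and 2.15 FPKM without. The groups did not overlap, as for the 13.6% of tested genes that were higher in both PlusDox HE1 libraries. Its log2 fold change of 1.85 ± 0.38 passed the test (limma adjusted p = 0.0345), as 1.37% of genes did (0.961% called higher), and ranked 24th from the top. This call was less secure than that in HE2. It was lost without NoDox HE1 replicate 1 (1.3, adjusted p = 0.376), PlusDox HE1 replicate 1 (1.79, 0.158), PlusDox HE1 replicate 2 (1.91, 0.124), NoDox HP replicate 1 (1.85, 0.0553) or NoDox HP replicate 2 (1.85, 0.0552), all by limma. It was also lost with a pseudocount of 0.1 (2.60, limma adjusted p = 0.267) and in the fit to the HE1 libraries alone (1.85, 0.145).

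In HP Cxcr4 was low in both arms. It read 0.435 and 0.454 FPKM with doxycycline, against 0.0644 and 0.285 FPKM without, so that the PlusDox libraries again lay above the NoDox ones, as for 20.5% of tested genes. The log2 fold change of 0.30 ± 0.38 did not pass (limma adjusted p = 0.968, 95% interval −0.51 to 1.12), where 0.834% of genes were called, with 0.601% called higher. The pseudocount weighs on values this low. With 0.1 in place of 1 the fold was 1.11 and did not pass either (limma adjusted p = 0.841). The difference of the doxycycline effects was −2.40 ± 0.53 between HP and HE2, −1.55 ± 0.53 between HP and HE1 and 0.85 ± 0.53 between HE2 and HE1. None passed over all genes (limma adjusted p = 0.313, 0.495 and 0.883, with 0.015%, 0.0375% and 0.0451% of genes called), so the effect is not shown to differ between populations.

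The order of the group means of Cxcr4 was PlusDox HE2 (9.68 FPKM), PlusDox HE1 (6.77), NoDox HE1 (1.31), NoDox HE2 (0.759), PlusDox HP (0.445) and NoDox HP (0.175). The difference of the first pair did not pass (HE2 against HE1 with doxycycline, log2 0.45 ± 0.38, limma adjusted p = 0.472). Among the last 4 groups each overlapped its neighbour or lay within the error. With doxycycline Cxcr4 fell to 0.445 ± 0.0136 FPKM in HP, against 9.68 ± 1.41 FPKM in HE2, a log2 change of −2.88 ± 0.38 (limma adjusted p = 0.000278, 16.9% of genes called and 10.9% called lower). It was also lower in HP than in HE1, by a log2 change of −2.43 ± 0.38 (limma adjusted p = 0.000323, 38.7% of genes called and 16.3% called lower). Both of these calls held in each of 12 fits without 1 library, and that of HP against HE2 was lost in the 7 libraries low in Lars2 (−2.75, limma adjusted p = 0.117, 1 residual degree of freedom). Without doxycycline the steps were −0.40 ± 0.38 for HE2 against HE1, −0.48 ± 0.38 for HP against HE2 and −0.88 ± 0.38 for HP against HE1, and none passed (limma adjusted p = 0.514, 0.461 and 0.081, with 10.1%, 16% and 40.6% of genes called). The last of them passed in a fit to the NoDox HP and NoDox HE1 libraries alone (−0.88, limma adjusted p = 0.0265). It also passed without NoDox HE1 replicate 1 (−1.43), NoDox HE2 replicate 1 or NoDox HE2 replicate 2, the fold unchanged at −0.88 in the last 2 fits.

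Some endothelial, haematopoietic and stromal markers moved beside the Cxcr4 rise in HE2, where 3.82% of all genes were called higher and 2.24% lower. Of the 8 endothelial markers Cldn5 and Esam, both of endothelial junctions, rose, and the summed level of the list was 1205 and 1189 FPKM with doxycycline, against 700.1 and 1056 FPKM without. The other 6, Cdh5, Pecam1, Kdr, Tek, Tie1 and Emcn, were not called (log2 fold changes of 0.59, 0.58, −0.12, 0.22, 0.095 and 0.91 in HE2). Of the 8 haematopoietic markers Ptprc, the pan-leukocyte antigen, Coro1a, a leukocyte actin regulator, Spn, the leukocyte surface protein CD43, and Spi1, a myeloid transcription factor, rose in HE2, and the sum was 322 and 203 FPKM with doxycycline, against 305 and 184 FPKM without. The other 4, Itga2b, Gata1, Gfi1b and Myb, had negative log2 fold changes in HE2 (−0.74, −0.26, −0.62 and −0.81) and were not called. Cldn5 and Esam were not called without NoDox HE2 replicate 1, where their folds were 1.05 and 0.67, nor without either PlusDox HE2 library. Spi1 was not called without either NoDox HE2 library or PlusDox HE2 replicate 1, and Cldn5 also not without either NoDox HP library. Of 7 tested mesenchymal and stromal markers Pdgfrb, a pericyte receptor, fell in HE2, to 0.809 and 0.501 FPKM with doxycycline, against 4.27 and 1.90 FPKM without, and was not called without NoDox HE2 replicate 1 (−0.81) or PlusDox HE2 replicate 2 (−1.11). In HE1, where Cxcr4 also rose, 0 of 8 endothelial and 0 of 8 haematopoietic markers were called, beside 1.37% of all genes. The haematopoietic log2 fold changes in HE1 ran from −1.22 (Itga2b) to 1.05 (Spi1), with a median of −0.09. Ptprc read 0.0659 and 0 FPKM in PlusDox HE1 and was listed at 0 in both NoDox HE1 libraries. In HP, 1 of 8 endothelial and 1 of 8 haematopoietic markers were called, both higher, beside 0.601% of all genes. Cdh5 read 53.2 and 36.4 FPKM with doxycycline, against 10.8 and 9.88 FPKM without (log2 1.99 ± 0.26, limma adjusted p = 0.0058). Spn rose by 1.17 ± 0.21 (limma adjusted p = 0.0315). With 1 library left out these folds ran from 1.72 to 2.25 and from 0.95 to 1.39. The part of a change in cell composition in the Cxcr4 values was not tested.

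**Figure D3:**
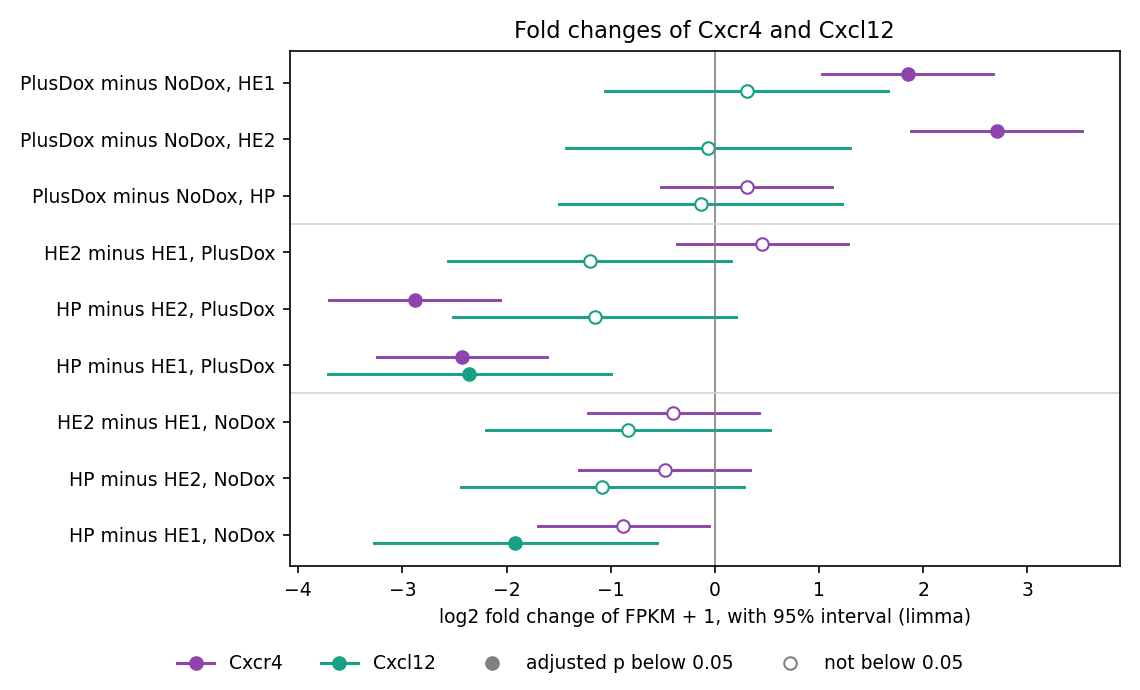
Log2 fold changes (FPKM + 1) of Cxcr4 and Cxcl12 with 95% intervals from limma, for PlusDox minus NoDox in each population and for the steps between populations in each arm. Filled points have an adjusted p below 0.05 over 13316 genes. Cxcr4 passes for doxycycline in HE1 and HE2 and for HP against both other populations with doxycycline, and Cxcl12 passes for HP against HE1 in both arms.

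Ackr3, the scavenging receptor, was under 1 FPKM throughout. In HE1 it read 0.686 and 0.769 FPKM with doxycycline, against 0.471 and 0.444 FPKM without. In HE2 it read 0.123 and 0.126 FPKM with doxycycline, against 0.251 and 0.26 FPKM without. In HP it read 0.131 and 0.203 FPKM with doxycycline, against 0.201 and 0.29 FPKM without. The PlusDox libraries thus lay above the NoDox ones in HE1, below them in HE2, and overlapped them in HP. Of 1694 genes that were above 0 in all libraries and peaked between 0.1 and 1 FPKM, 13.6% were likewise separated upward in HE1 and 24.1% downward in HE2. On the log2(FPKM + 1) scale the differences were 0.25 in HE1, −0.16 in HE2 and −0.09 in HP. When all genes above 0 were fitted without the filter, none of the 3 passed (limma adjusted p = 0.138, 0.219 and 0.789, with 0.604%, 1.82% and 0.381% of 24684 genes called). Between stages that fit called Ackr3 lower in HE2 than in HE1 with doxycycline (−0.62 ± 0.06, limma adjusted p = 0.00248, 3.32% of genes called), and lower in HP than in HE1 with doxycycline (−0.57 ± 0.06, 0.000362, 21.8%) and without (−0.23 ± 0.06, 0.0212, 23.2%). HE2 against HE1 without doxycycline did not pass (−0.21 ± 0.06, limma adjusted p = 0.0837, 3.37%). Its order of group means was PlusDox HE1 (0.727 FPKM), NoDox HE1 (0.457), NoDox HE2 (0.256), NoDox HP (0.246), PlusDox HP (0.167) and PlusDox HE2 (0.125). NoDox HE2 and NoDox HP overlapped, as did NoDox HP and PlusDox HP. The libraries of PlusDox HP (0.131 and 0.203 FPKM) lay narrowly above those of PlusDox HE2 (0.123 and 0.126 FPKM). That step did not pass in the fit without the filter (0.05 ± 0.06, limma adjusted p = 0.712, with 2012 of 24684 genes called).

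The balance between the members differed by arm. FPKM is scaled by length, so levels of genes can be compared within a library. Cxcl12 stood at 0.0879 to 1.36 times the level of Cxcr4 in the 6 PlusDox libraries, against 1.75 to 8.44 times in the 6 NoDox libraries, and the ranges did not overlap. PlusDox HE1 replicate 2 was the 1 PlusDox library in which the ligand exceeded the receptor. Cxcr4 stood at 2.24 to 84.6 times the level of Ackr3 in PlusDox libraries, against 0.32 to 5.45 times in NoDox libraries. These ratios rest on the Cxcr4 values above and are given as description, with no test. In HP the ratios of Cxcl12 to Cxcr4 come from values of 0.0644 to 0.498 FPKM, and neither gene was called for doxycycline there. How many other pairs of genes separate the arms in this way was not examined.

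Genes around the 2 receptors were read from lists of 165 names, 163 of them in the files and 120 tested. In HE2, 11 of the 120 rose and 2 fell (3.82% and 2.24% of all genes), with a median log2 fold change of 0.17, beside −0.05 for all tested genes. In HE1, 4 rose and 0 fell (0.961% and 0.406% of all genes; median 0.03, all genes −0.07), and in HP 2 rose and 0 fell (0.601% and 0.233% of all genes; median 0.08, all genes −0.003). The lists had been drawn up with earlier results of these data known. The counts depended on single libraries. Without NoDox HE2 replicate 1, PlusDox HE2 replicate 1 or PlusDox HE2 replicate 2 the HE2 counts were 0 higher and 1 lower, 3 and 2, and 4 and 0. The HE1 count was 0 without NoDox HE1 replicate 1, and 1 without replicate 2 of NoDox HE1 or replicate 1 of PlusDox HE1. In HP the count was 0 without either NoDox HE1 library, either NoDox HP library or either PlusDox HP library, and 1 without either PlusDox HE1 library or without PlusDox HE2 replicate 2. In the 7 libraries low in Lars2 no gene of the lists was called in any population, with 1 residual degree of freedom. In fits to 1 population alone the counts were 2 higher in HE2 and 0 in HE1 and HP, and without the filter 3 higher and 1 lower were called in HE2.

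Of 5 tested other ligands of the receptors 2 rose in HE1 and 0 fell, where 0.961% of all genes were called higher. Cxcl14, a chemokine reported to bind CXCR4, read 2.02 and 1.06 FPKM in PlusDox HE1 and was listed at 0 in both NoDox HE1 libraries (log2 1.32 ± 0.21, limma adjusted p = 0.0101). Adm, which encodes the vessel peptide adrenomedullin and is bound by ACKR3, read 2.04 and 2.55 FPKM in PlusDox HE1, against 0.351 and 0.366 FPKM in NoDox HE1 (1.28 ± 0.22, limma adjusted p = 0.0166). Mif, Hmgb1 and Ubb were not called, with log2 fold changes of −0.11, −0.19 and 0.02 in HE1. Cxcl14 was called in 9 and Adm in 8 of 12 fits without 1 library, Cxcl14 not without either NoDox HE1 library or PlusDox HE1 replicate 1, and Adm not without any of the 4 HE1 libraries. In HE2 and HP 0 of the 5 were called, beside 6.06% and 0.834% of all genes. The Mif co-receptor Cd74 was not called in any of the 3 populations, with log2 fold changes of 0.19, 0.90 and 0.55 from HE1 to HP.

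Among genes that carry or dampen the G protein signal few were called, beside 1.37% (HE1), 6.06% (HE2) and 0.834% (HP) of all genes. Gnb1, a G protein beta subunit, was the 1 of 9 G protein genes called in HE2, and it fell to 67.8 and 59.0 FPKM with doxycycline, against 108 and 136 FPKM without (log2 −0.93 ± 0.19, limma adjusted p = 0.0157). Rgs5, a G protein signalling inhibitor known from pericytes, was the 1 of 10 tested RGS genes called in HE1, at 3.13 and 2.08 FPKM against 0.303 and 0.182 FPKM (1.52 ± 0.19, limma adjusted p = 0.00312). Gnb1 was not called without NoDox HE2 replicate 2 or PlusDox HE2 replicate 2, and Rgs5 not without NoDox HE1 replicate 1. Of the 5 tested receptor kinases and arrestins and the 7 receptor degradation genes, 0 were called in any population.

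Of 27 downstream signalling genes 6 rose in HE2, 2 in HP and 0 in HE1, where 3.82%, 0.601% and 0.961% of all genes were called higher. In HE2 they included Plcb2, a phospholipase C of blood cells, at 9.41 and 5.68 FPKM with doxycycline, against 1.21 and 2.19 FPKM without (log2 1.65 ± 0.30). Pik3r5, the regulatory subunit of the G protein-activated PI3 kinase gamma, read 1.42 and 1.35 FPKM, against 0.106 and 0.246 FPKM (1.02 ± 0.17). Ptpn6, a phosphatase of blood cells, and Socs3, a cytokine signalling suppressor, rose by 1.17 ± 0.31 and 1.10 ± 0.25. The adjusted p-values of these 4 genes lay between 0.00584 and 0.0441 by limma. Over 12 fits without 1 library Plcb2 and Pik3r5 were called in 11 each, both lost without NoDox HE2 replicate 1, Socs3 in 10, lost without replicate 1 of either HE2 group, and Ptpn6 in 2. In HP Plcb2 read 14.3 and 11.3 FPKM with doxycycline, against 4.19 and 3.68 FPKM without (1.48 ± 0.30, limma adjusted p = 0.0442). Dock2, a Rac activator needed for lymphocyte migration, read 2.84 and 1.95 FPKM, against 0.792 and 0.519 FPKM (1.03 ± 0.21, limma adjusted p = 0.046). The HP calls of Plcb2 and Dock2 held in 6 and 3 of the 12, and neither held without any of the 4 HP libraries or either NoDox HE1 library.

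Of 8 tested homing adhesion genes and 14 proteoglycan genes, 3 rose and 1 fell in HE2, where 6.06% of all genes were called, and 1 rose in HE1, where 1.37% were. Itga4, the alpha 4 integrin used in progenitor homing, read 22.5 and 24.7 FPKM in PlusDox HE2, against 9.32 and 11.3 FPKM in NoDox HE2 (log2 1.13 ± 0.25, limma adjusted p = 0.0214). Cd44, a hyaluronan receptor, read 35.1 and 34.8 FPKM, against 9.45 and 23.4 FPKM (1.17 ± 0.30, limma adjusted p = 0.0431). The Cd44 call held in 1 of 12 fits without 1 library, and its fold was 0.56 without NoDox HE2 replicate 1. Gpc1, a heparan sulphate proteoglycan of the class that holds chemokines at the cell surface, rose in HE1 (1.27 ± 0.25, limma adjusted p = 0.0277) and in HE2 (1.12 ± 0.25, 0.022). Gpc3 of the same family fell in HE2 (−0.85 ± 0.21, limma adjusted p = 0.0336). In HE2, Itga4 and Gpc1 were called in 9 of the 12 and Gpc3 in 6, none of them without NoDox HE2 replicate 1. The HE1 call of Gpc1 held in 9 and was lost without either NoDox HE1 library or PlusDox HE1 replicate 1. Of the 7 listed peptidases that can cut CXCL12, 2 were tested and 0 were called in any population. Among 12 factors known to act on the Cxcr4 or Cxcl12 genes, Epas1, the hypoxia factor HIF-2 alpha, was the 1 called, at 26.0 and 31.1 FPKM in PlusDox HE2, against 5.68 and 14.4 FPKM in NoDox HE2 (1.54 ± 0.35, limma adjusted p = 0.0268). It was called in 9 of 12 fits without 1 library and in 4 of 8 other alternatives, and its fold was 0.93, not called, without NoDox HE2 replicate 1.

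Of 21 other chemokine receptors 7 were tested and 0 were called in any population, where 1.37% (HE1), 6.06% (HE2) and 0.834% (HP) of all genes were. Ackr1, a decoy receptor, had a group mean of 8.16 FPKM in PlusDox HE2 and 4.17 FPKM in NoDox HE2 (log2 0.82, limma adjusted p = 0.0826), and its log2 fold change in HP was 1.01 (0.113). With doxycycline the mean FPKM of Cxcr4 was above that of each of the 21 in HE1 and HE2. Of 32 other chemokines 13 were tested, and Ccl9, a myeloid chemokine, was the 1 called, at 20.2 and 23.2 FPKM in PlusDox HE2, against 4.64 and 10.4 FPKM in NoDox HE2 (1.5 ± 0.32, limma adjusted p = 0.0173). Without NoDox HE2 replicate 1 its fold was 0.99 and it was not called, nor was it without PlusDox HE2 replicate 2. The neutrophil chemokine gene Cxcl1 had log2 fold changes of 0.77, 1.28 and 0.74 in HE1, HE2 and HP and was not called (limma adjusted p = 0.631, 0.0832 and 0.671).

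**Figure D4:**
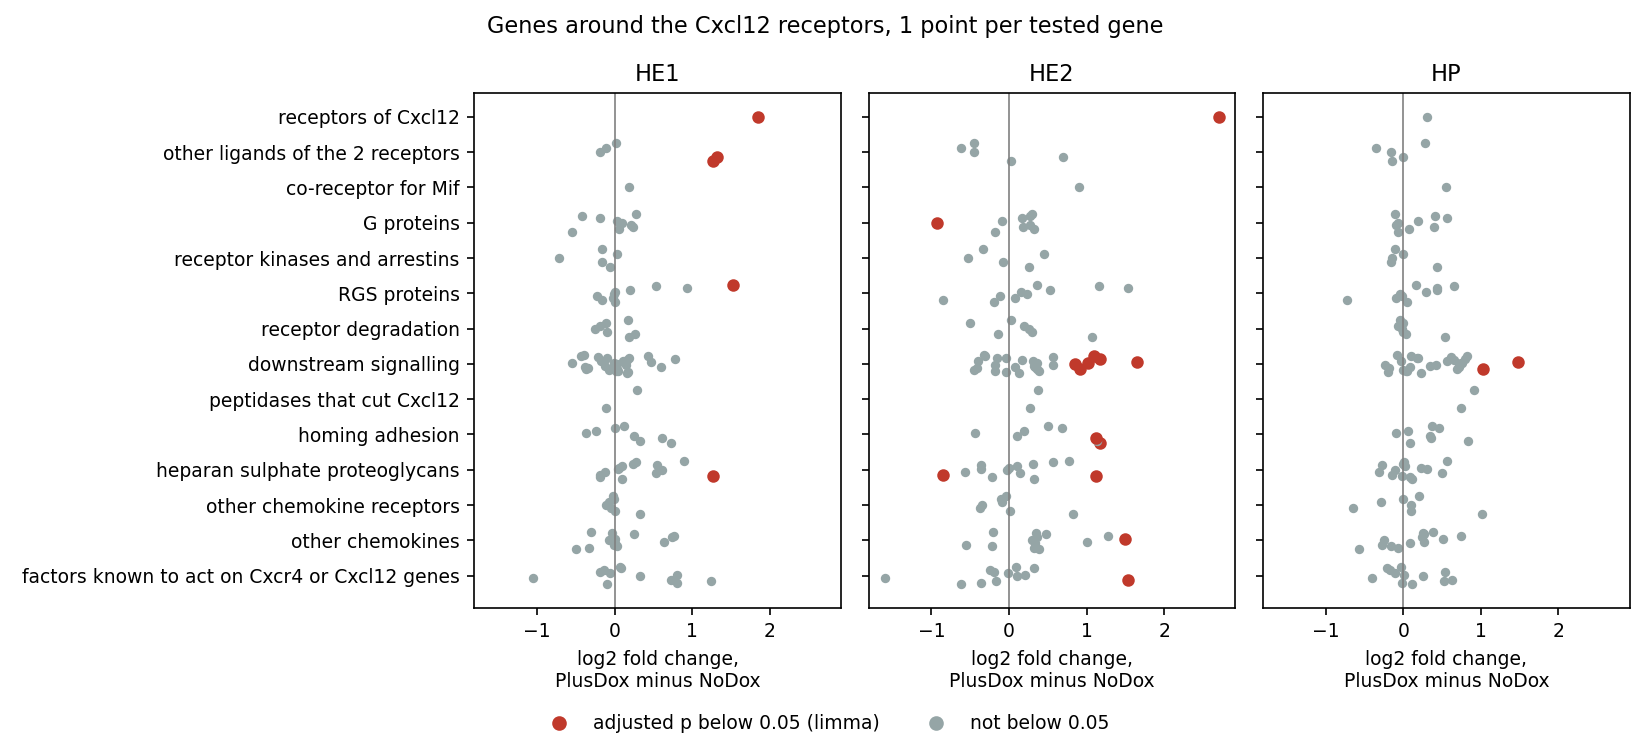
Log2 fold change (PlusDox minus NoDox, FPKM + 1) of each tested gene of the lists around the receptors, in HE1, HE2 and HP. The ligand Cxcl12 and the cell type markers are not drawn. Red points have a limma adjusted p below 0.05 over 13316 genes. Among the genes drawn Cxcr4, alone in the top row, lies farthest right in HE1 and HE2.

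The genes whose levels ran most like each member were taken over the 12 libraries, among 9437 tested genes with a group mean of at least 5 FPKM. These correlations describe libraries that share 3 populations and 2 arms, and carry no test. Nearest to Cxcr4 were Sema7a, a membrane semaphorin (Pearson r = 0.981), Dmd, which encodes dystrophin (0.976), Alas1, Rdh10 and Fbp1 (0.972 down to 0.97). Sema7a averaged 9.98 and 1.34 FPKM in PlusDox and NoDox HE1, 8.27 and 0.723 FPKM in PlusDox and NoDox HE2, and 0.228 and 0.0182 FPKM in PlusDox and NoDox HP. Nearest to Cxcl12 were Hspb1, a small heat shock protein gene (r = 0.973), Igfbp7, Tspan6, the G protein gene Gnai1 and Arhgap29 (0.956 down to 0.94). Nearest to Ackr3 were Hand1, a transcription factor of heart and extra-embryonic mesoderm (0.928), S1pr2, Sema3e, Bex4 and Itgav (0.918 down to 0.904).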

How the data were processed

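RNA of sorted mouse cells was read by stranded total RNA sequencing, 12 libraries in 1 paired-end pool per the labels. The tools Trimmomatic (0.32), HISAT2 (2.1.0) and StringTie (1.3.3) and the mm10 build are named in the submitters' processing notes. Neither annotation nor strand setting is given there. The deposited values were read as FPKM made by the authors, an inference from the tool and from library sums that differ (468326 to 579055). Values of repeated names (2 to 4 a file, no member among them) were summed.

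Genes with at least 1 FPKM in 2 libraries (13316) were fitted with limma 3.58.1 in R 4.3.3 on log2(FPKM + 1), so folds of low genes are understated. The fit had 6 group means, an intensity trend and 6 residual degrees of freedom, beside 5.83 prior ones. P-values are two-sided, adjusted by Benjamini-Hochberg over all genes of a comparison, and called below 0.05. They rest on the spread between the 2 replicates, pooled over all groups, which the labels call biological without describing them further. The fit was tested on simulated data. Tables were read in Python 3.11.15 (numpy 2.4.6, pandas 2.3.3), and plots made with matplotlib 3.10.9.

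Beside the members, up to 4 called genes per list with the largest fold, and the 5 genes of most like pattern per member, were named. Predicted and small RNA genes were left out of the search for like patterns. Ackr1, Acta2, Tagln, Pdgfra, Dcn, Lum, Cd74, Col1a2, Cxcl1, Mif, Hmgb1, Ubb and the markers were named after their values were seen. The members and lists were chosen with earlier results of these data known. Replicate numbers were not taken as pairs. Differences between replicates correlated by number over the 15 pairs of groups with r from −0.1 to 0.526. Alternatives were a pseudocount of 0.1, no filter, quantile normalization, median scaling, a replicate block, a library class term, the libraries low in Lars2, the populations compared alone, and each library left out.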

Additional observations from a re-analysis of the deposited data

Results flagged for a closer look

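The Ackr3 libraries with and without doxycycline separated in opposite directions in the 2 kinds of hemogenic endothelium. Both PlusDox libraries lay above both NoDox libraries in HE1 and below them in HE2. Of genes above 0 in all libraries that peaked between 0.1 and 1 FPKM, 13.6% separated upward in HE1 and 24.1% downward in HE2. The Ackr3 effects differed by −0.40 on the log2(FPKM + 1) scale (HE2 minus HE1). This difference was not tested in the fit reported above, which Ackr3 did not enter. Without the filter on low values it did not pass (limma adjusted p = 0.279), and neither did the effect in HE1 (0.138) or HE2 (0.219). All Ackr3 values were under 1 FPKM.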

How the results depend on the processing

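The rise of Cxcr4 in HE2 kept its direction in all alternatives and its call in all but the 7 libraries low in Lars2 (2.57). That in HE1 kept its direction but did not pass with a pseudocount of 0.1 (2.60), without the filter, with a library class term or in HE1 alone (1.85 each), or in the libraries low in Lars2 (1.36). With 1 library left out it ran from 1.3 to 2.40 in HE1, 2.14 to 3.27 in HE2 and 0.17 to 0.44 in HP. The folds of Cxcl12 ran from −0.64 to 1.25, −0.69 to 0.56 and −0.31 to 0.034 in HE1, HE2 and HP with 1 library left out, and the HE1 fold reversed in the libraries low in Lars2 (−1.29). Those of Ackr3 ran from 0.21 to 0.28, −0.16 to −0.15 and −0.15 to −0.042, and with a pseudocount of 0.1 were 0.57, −0.66 and −0.37. With 1 library left out, the differences between the Cxcl12 effects ran from −1.31 to 0.58 (HE2 minus HE1), −0.70 to 0.55 (HP minus HE2) and −1.39 to 0.50 (HP minus HE1). They reversed in the libraries low in Lars2 (0.60, 0.54 and 1.14), and HP minus HE2 also with the class term (0.057). The NoDox step from HE1 to HE2 ran from −0.97 to 0.17 for Cxcr4 and −1.78 to 0.11 for Cxcl12, and that from HE2 to HP from −1.05 to 0.087 for Cxcr4. The cause of these changes was not tested.

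With the replicate block, the Cxcr4 folds of 1.85 and 2.70 in HE1 and HE2 kept their calls. Cxcl12 then passed in the steps HE2 minus HE1 (−1.20) and HP minus HE2 (−1.15) with doxycycline and HP minus HE2 without (−1.08; limma adjusted p = 0.0234, 0.0195 and 0.0292), and Cxcr4 in HP minus HE1 without (−0.88). The block raised the called list genes to 7 higher and 2 lower in HE1, 23 and 7 in HE2 and 4 and 0 in HP. Against 4, 11 and 2 higher and 0, 2 and 0 lower in HE1, HE2 and HP, the counts were 0 in HE1 and HP and 2 higher in HE2 in the populations compared alone, and 3 higher and 1 lower in HE2 without the filter. With a pseudocount of 0.1 they were 2 higher in HE1, 7 higher and 2 lower in HE2, and 0 in HP. Quantile normalization gave 17 and 6 in HE2 and median scaling 16 and 5. The depth of each library is unknown, which limits what can be said of Ackr3 and of all members in HP.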
